A study of Mus musculus with 38 samples.

Results

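Pck1, G6pc, Irs1, Irs2, Insr, Foxo1, Pklr, Slc2a2 and Gys2 are the genes through which insulin sets how much glucose the liver makes, takes up and stores. All probes that carry 1 of these symbols in the platform's annotation were taken. They were 14 probes for 8 of the 9 genes, out of 36607 probes on the array. Irs2 had no probe under its symbol and is not analysed here. Pck1, Irs1, Foxo1 and Pklr had 2 probes each, Slc2a2 had 3, and G6pc, Insr and Gys2 had 1. They are numbered in the order of the platform.

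The study profiled RNA from whole livers of 20 male mice on 38 2-colour arrays. All mice received 1 intraperitoneal dose of 10 µg/g N-nitrosodiethylamine (DEN), a liver carcinogen, at 14 days of age. The 4 groups held 5 mice each: knockouts (Alb-Cre +/-; Met Fl/Fl, strain 129SV/C57BL6) and controls (Alb-Cre +/-, strain B6129), called 3 months and 5 months after the time that the design text gives. The labels give 12 and 20 weeks of age for them, which leaves the interval after the dose open to question. Met encodes the receptor for hepatocyte growth factor. Cre is driven by the albumin promoter, which is active in hepatocytes, so liver cells in which it was never active keep the floxed gene. Knockouts and controls also differ in the strain named, and genotype and strain cannot be told apart. Each liver was hybridised against 1 pool of RNA from 5 normal wild-type male livers aged 12 weeks, and every value below is a log2 ratio of liver over that pool, 1 per mouse. Positive values mean more RNA than in the pool. Which dye is the numerator is stated in none of the labels. Cy5 was taken as the numerator because that is the usual convention. If it was Cy3, every higher below is a lower. Arrays with the liver in Cy3 had their sign turned, yet before turning both arrays of each 3-month mouse correlated at r from 0.34 to 0.51 over probes, where ratios of the dyes would mirror, so the turning is not settled at that age. At 5 months that r ran from -0.70 to 0.18 in the 8 mice with both arrays. Values with no array turned are given for G6pc, the first Irs1 probe, Igfbp1, Dcn and the calls between ages, and the marker lists were read only with arrays turned. A difference with no array turned lies near 0 wherever both orientations agree after turning, so it cannot tell which reading is right.

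The probe for Met, the targeted gene, was read first in every mouse. At 3 months its log2 ratio ran from -0.59 to 0.28 in knockouts and from -1.001 to -0.62 in controls, so all 5 knockouts lay above all 5 controls. With Cy5 taken as the numerator that is against the direction of a loss, and with Cy3 it would be reversed. The difference did not pass the test described below (limma, adjusted p = 0.655). At 5 months it ran from -1.57 to -0.45 in knockouts and from -1.19 to -0.37 in controls, and the groups overlapped. Whether the probe lies in the deleted part is not known here, so it does not check the labels, and knockout stands throughout for mice with that label. Of the arrays at 5 months, the Cy5 one of control 4 ran opposite to the Cy5 arrays at 3 months (r from -0.61 to -0.48 across probes), while it correlated with the other array of its own mouse (0.70 after turning). Without it, the Insr call between ages given below is lost.

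Insulin binds its receptor, encoded by Insr, which phosphorylates the docking proteins encoded by Irs1 and Irs2. These recruit phosphoinositide 3-kinase and so activate the kinase AKT. In hepatocytes AKT phosphorylates the transcription factor FOXO1 and keeps it out of the nucleus, so genes that FOXO1 activates, among them G6pc, Pck1, Irs2 and Igfbp1, fall after feeding. Glucose itself enters through the transporter encoded by Slc2a2, is burned through pyruvate kinase (Pklr), or is stored as glycogen by Gys2.

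Promoter sequence is shown for 3 genes whose values carry the results below, G6pc, Irs1 and Pck1, and for Igfbp1, the FOXO1 target that passed the test. Each is the 250 bases before the annotated start, from RefSeq (GRCm38.p6), 5′ to 3′ on the gene's own strand. Capitals mark CAAAACA, the core letters of the insulin response sequence that FOXO1 binds, read on either strand (TGTTTTG on the other), and TTACGTCA, the cyclic AMP response element known from the rat Pck1 promoter. No match of one overlapped a match of the other.
G6pc, chr11:101367466-101367715, plus strand: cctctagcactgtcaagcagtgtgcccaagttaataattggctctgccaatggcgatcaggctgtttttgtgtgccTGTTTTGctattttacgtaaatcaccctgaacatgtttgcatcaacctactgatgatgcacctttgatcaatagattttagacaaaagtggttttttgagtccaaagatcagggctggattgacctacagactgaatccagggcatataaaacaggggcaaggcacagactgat
Igfbp1, chr11:7197537-7197786, plus strand: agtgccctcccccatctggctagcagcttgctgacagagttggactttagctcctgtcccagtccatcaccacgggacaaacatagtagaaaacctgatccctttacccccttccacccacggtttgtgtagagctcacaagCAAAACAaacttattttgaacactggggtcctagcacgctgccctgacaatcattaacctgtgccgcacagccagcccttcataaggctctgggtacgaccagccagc
Irs1, chr1:82291440-82291689, minus strand: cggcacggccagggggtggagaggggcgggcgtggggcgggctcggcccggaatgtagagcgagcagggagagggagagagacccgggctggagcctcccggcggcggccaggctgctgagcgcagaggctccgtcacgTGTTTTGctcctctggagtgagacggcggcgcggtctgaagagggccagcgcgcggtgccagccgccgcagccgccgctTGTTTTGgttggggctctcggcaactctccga
Pck1, chr2:173152823-173153072, plus strand: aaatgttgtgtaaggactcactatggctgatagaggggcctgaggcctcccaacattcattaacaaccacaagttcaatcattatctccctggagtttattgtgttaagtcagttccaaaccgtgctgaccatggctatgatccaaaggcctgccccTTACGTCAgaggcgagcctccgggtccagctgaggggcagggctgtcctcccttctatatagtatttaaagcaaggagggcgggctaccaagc
CAAAACA begins 174 bases before the start in G6pc, 108 before it in Igfbp1, and 111 and 32 before it in Irs1. TTACGTCA begins 93 bases before the start of Pck1. Of 32851 RefSeq windows of the same length, 5.56% hold CAAAACA and 0.447% hold TTACGTCA. The windows of Foxo1, Slc2a2 and Pklr hold neither, and that of Irs2 holds CAAAACA. Insr and Gys2 had no window and were not searched. A match describes letters in the window and is no evidence of binding in these livers.

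None of the 14 probes passed the test between knockouts and controls. The test was limma over all 36607 probes and 20 mice, with Benjamini-Hochberg adjustment over all probes and a threshold of 0.05, and a probe that passes it is called changed. At 3 months 0 of 14 passed, against 0.0355% of all probes. At 5 months 0 of 14 passed, against 0.145% of all probes. Over the mean of both ages it was 0 of 14 against 0.104%, and for the change of the genotype difference between ages 0 of 14 against 0%. At an unadjusted p under 0.05, each of these comparisons had 2 of 14. All probes gave 7.96% at 3 months, 10.5% at 5 months, 10.2% over both ages and 7.74% for the change between ages. The share of members is therefore near that of the array, and the values below describe sizes and intervals.

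The values of each mouse show where the groups separate and where they do not.

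**Figure D1:**
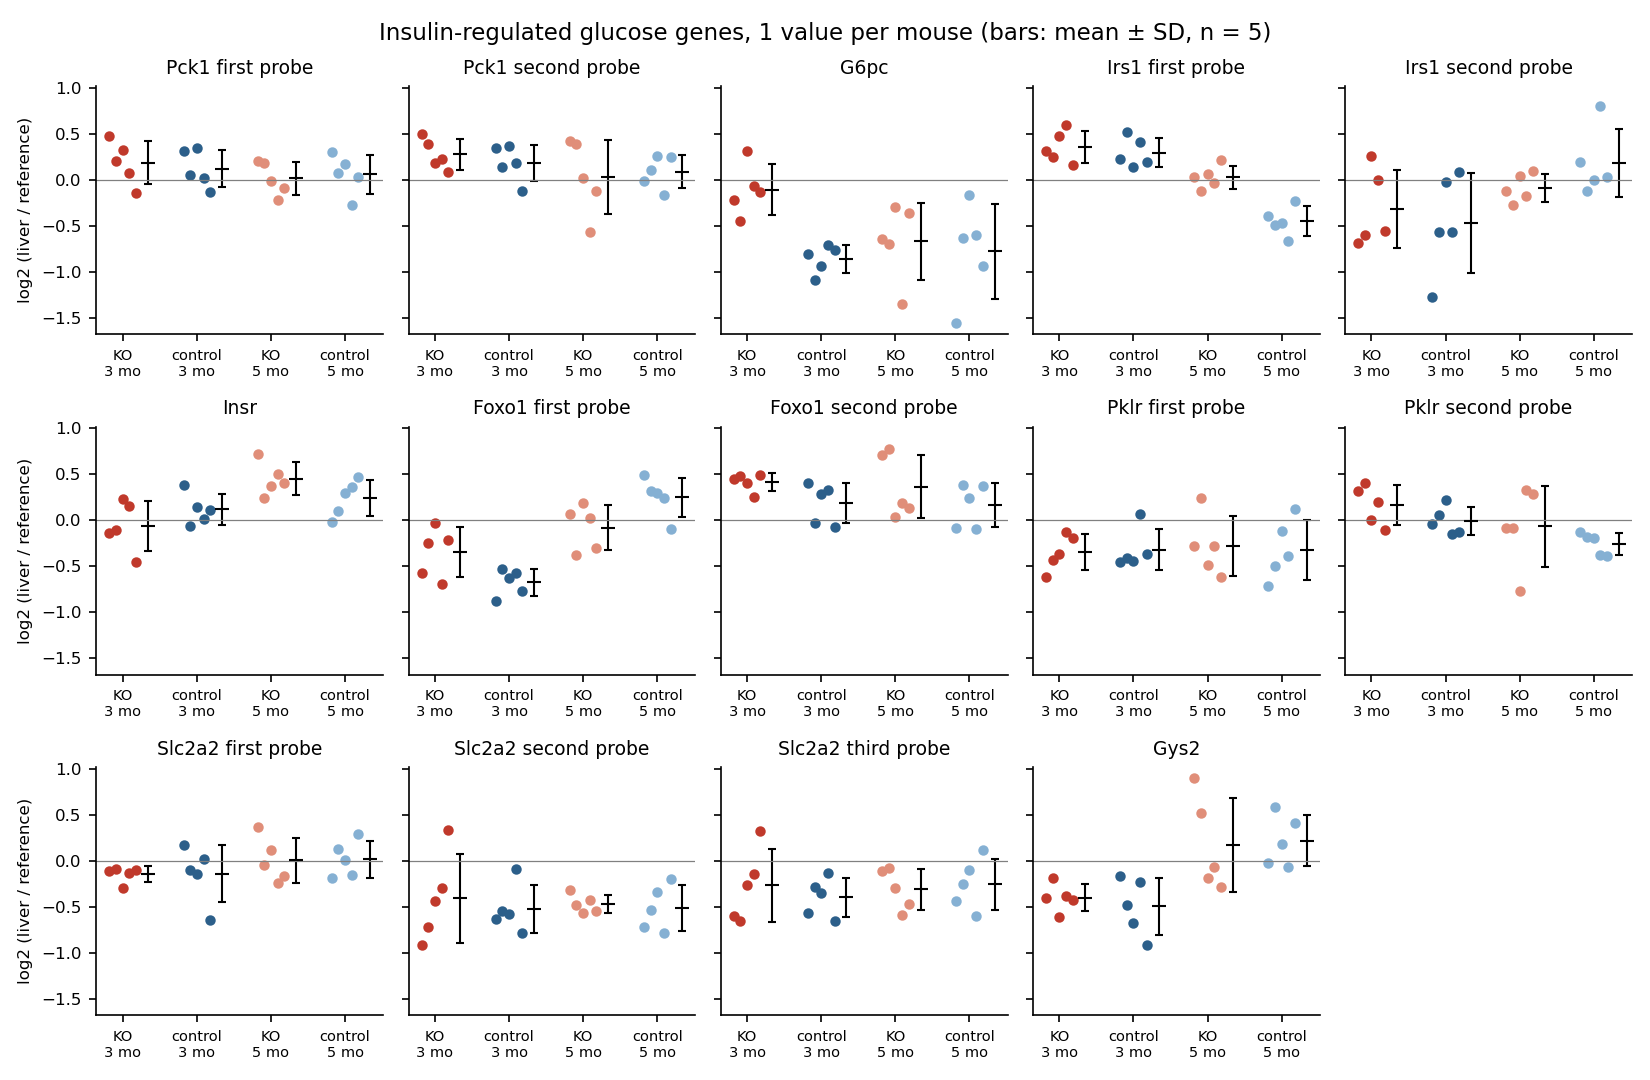
Log2 ratio of liver over reference for each of the 14 probes, 1 point per mouse, in knockouts (KO) and controls at 3 and 5 months, with the mean ± SD of each group (n = 5) beside the points. G6pc at 3 months and the first Irs1 probe at 5 months are the panels in which knockouts and controls of an age do not overlap, and the 2 Irs1 probes and the 2 Foxo1 probes do not follow each other.

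G6pc encodes the catalytic subunit of glucose-6-phosphatase, which releases free glucose as the last step of gluconeogenesis and glycogen breakdown. At 3 months its log2 ratios were -0.22, -0.45, 0.31, -0.07 and -0.13 in knockouts, against -0.81, -1.09, -0.94, -0.71 and -0.76 in controls. All 5 knockouts lay above all 5 controls, and the knockouts lay nearer to the normal liver pool. The mean was -0.11 ± 0.28 in knockouts and -0.86 ± 0.15 in controls (SD, n = 5 each). The difference was 0.75 ± 0.23 (SE) on the log2 scale, or 1.69-fold with a 95% interval of 1.22 to 2.33. It did not pass the test over all probes (limma, adjusted p = 0.303, unadjusted p = 0.00337). Groups of 3 months did not overlap in 1.31% of all probes, and in 0.385% with the knockouts above.

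At 5 months the G6pc groups overlapped. The log2 ratios were -0.64, -0.70, -0.29, -1.35 and -0.36 in knockouts, against -1.55, -0.64, -0.17, -0.60 and -0.94 in controls. The spread within each group was wide, and all 10 mice lay below the reference. Of all probes, 16.6% lay below it in all 5 knockouts of that age and 18.9% in all 5 controls. The difference was 0.11 with an interval of -0.36 to 0.58 (limma, adjusted p = 0.945). The change of the genotype difference, 5 months less 3 months, was -0.64 with an interval of -1.31 to 0.02 (adjusted p = 0.653). The 2 ages were therefore not shown to differ.

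The G6pc difference at 3 months was present in both dye orientations, which are separate hybridisations of the same livers. With the liver in Cy5, knockouts lay 0.86 above controls, and with the liver in Cy3, after turning, 0.65 above. It was 0.62 among the 5 mice of the first run of array numbers and 0.77 among the 5 of the second, and ran from 0.65 to 0.84 when 1 mouse was left out in turn. Without turning the liver-in-Cy3 arrays, it was 0.10, since orientations that agree after turning cancel without it. The mean hepatocyte marker level of the same mice ran from 0.16 to 0.32 in knockouts and from 0.22 to 0.27 in controls (14 genes).

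**Figure D2:**
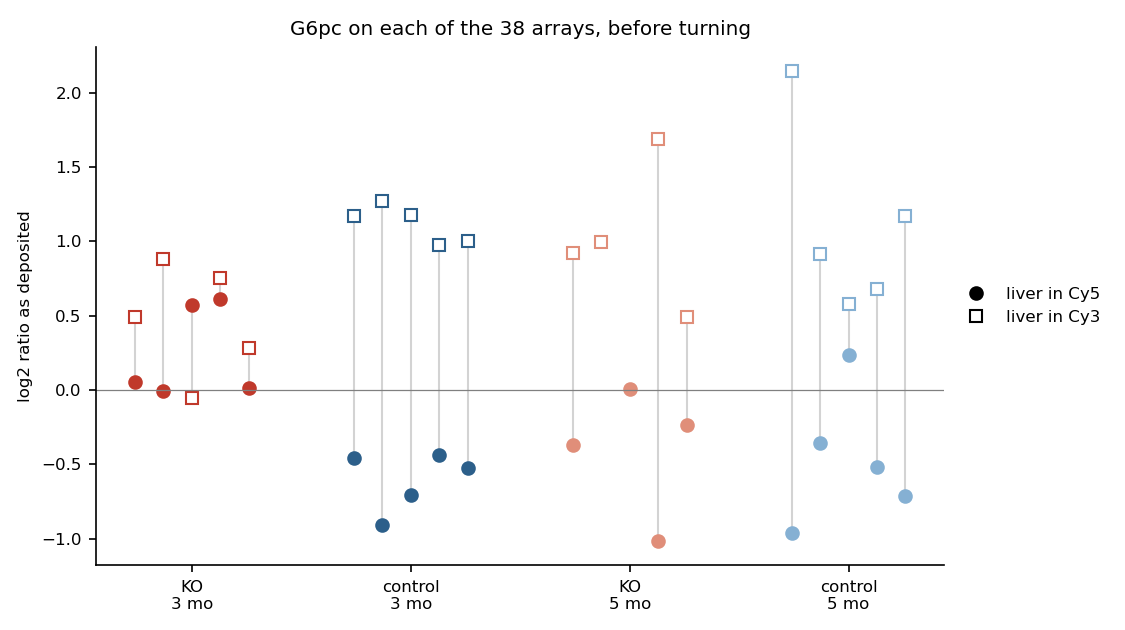
G6pc log2 ratio as deposited on each of the 38 arrays, before any turning, with liver in Cy5 as filled circles and liver in Cy3 as open squares, and a line joining both arrays of a mouse. In 3-month controls the Cy5 arrays lie between -0.91 and -0.44 and the Cy3 arrays between 0.98 and 1.27. In the knockouts of that age the Cy5 arrays lie between -0.01 and 0.62 and the Cy3 arrays between -0.05 and 0.88.

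Pck1 encodes phosphoenolpyruvate carboxykinase, the step at which lactate and amino acid carbon enter gluconeogenesis, and it is induced by glucagon through cyclic AMP. Its 2 probes stood close to the reference, with group means from 0.01 to 0.27. At 3 months the first probe gave 0.47, 0.20, 0.32, 0.07 and -0.14 in knockouts, against 0.31, 0.05, 0.34, 0.02 and -0.14 in controls. Those groups covered nearly the same range. The difference was 0.06 (interval -0.23 to 0.36) with the first probe and 0.09 (-0.25 to 0.44) with the second. At 5 months it was -0.04 (-0.34 to 0.26) and -0.06 (-0.41 to 0.29). These intervals include 0 and leave out a Pck1 difference of the size measured for G6pc at 3 months. The 2 Pck1 probes followed each other over the 20 mice with group means removed (r = 0.74), whereas G6pc followed neither (-0.05 and 0.23).

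Insr encodes the insulin receptor. At 3 months its log2 ratios were -0.14, -0.11, 0.23, 0.16 and -0.46 in knockouts, against 0.38, -0.06, 0.15, 0.01 and 0.11 in controls. At 5 months they were 0.72, 0.24, 0.37, 0.51 and 0.40 in knockouts, against -0.02, 0.10, 0.30, 0.35 and 0.47 in controls. The genotype groups overlapped at both ages. At 3 months the difference was -0.18 (-0.48 to 0.12), and at 5 months 0.21 (-0.09 to 0.50), with limma's adjusted p at 0.819 and 0.681.

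Irs1 encodes the docking protein that couples the receptor to phosphoinositide 3-kinase. At 5 months its first probe gave 0.02, -0.13, 0.06, -0.04 and 0.21 in knockouts, against -0.39, -0.49, -0.475, -0.67 and -0.23 in controls. All 5 knockouts lay above all 5 controls, close to the reference, while every control lay below it, as in 18.9% of all probes. The mean was 0.02 ± 0.12 in knockouts and -0.45 ± 0.16 in controls (SD, n = 5 each). The difference was 0.48 ± 0.12 (SE), or 1.39-fold with an interval of 1.17 to 1.65, and it did not pass over all probes (limma, adjusted p = 0.135, unadjusted p = 0.000698). At 5 months the groups did not overlap in 3.92% of all probes, and in 2.59% with the knockouts above.

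The second Irs1 probe did not follow the first. At 5 months it gave -0.12, -0.28, 0.04, -0.18 and 0.09 in knockouts, against 0.20, -0.12, 0.001, 0.80 and 0.03 in controls. The groups overlapped, and the difference was -0.27 (-0.77 to 0.24, adjusted p = 0.789). The probes correlated at r = 0.05 over 20 mice with group means removed, so a statement on Irs1 as a gene rests on which probe is read. The first probe varied little: its SD within groups, 0.16, is at the 2.58th percentile of all probes. The second had an SD of 0.40, at the 66.2nd percentile.

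The first-probe difference at 5 months was 0.38 with the liver in Cy5 and 0.61 with the liver in Cy3. It was 0.40 among the controls and the 2 knockouts of the same run of array numbers. With no array turned it was -0.09, where orientations that agree after turning again cancel. At 3 months the same probe differed by 0.06 (-0.18 to 0.31), and its values in the 2 orientations, 0.37 and -0.25, had opposite signs.

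Marker lists of other liver cells were read in the same mice at 5 months, in whole-liver RNA in which fewer cells of a type and less RNA per cell cannot be told apart. At that age 5 controls and 2 knockouts shared a run of array numbers, and 3 knockouts were in another run without controls. Genotype and array run were thus partly mixed in every genotype difference at 5 months. The marker lists were not read within a run. Of 12 measured Kupffer cell and macrophage genes 10 had a positive difference, with a median of 0.47 against 0.02 for all genes, 8 had a probe with an unadjusted p under 0.05, against 14.6% of all named genes, and limma called 0. The mean level of that list ran from -0.10 to 0.49 in knockouts and from -0.38 to 0.07 in controls. The mean over 11 endothelial genes ran from -0.06 to 0.10 in knockouts and from -0.29 to -0.11 in controls, and 9 had a positive difference (median 0.22). The mean over 14 hepatocyte genes ran from -0.01 to 0.25 in knockouts and from -0.55 to 0.15 in controls, and 13 had a positive difference (median 0.18). In the stellate cell and fibroblast list, 1 of 10 genes passed, Dcn, a matrix proteoglycan, through 1 of its 4 probes (0.55, adjusted p = 0.0478), against 0.200% of all named genes with a probe called. The Dcn call was lost with its sign kept in 29 of 37 alternatives, and the value was -0.055 with no array turned. The mean over those 10 genes ran from -0.27 to -0.15 in knockouts and from -0.38 to -0.31 in controls. Of these genes 6 had a positive difference, and the list median of 0.04 was near the 0.02 of all genes. The endothelial and the stellate mean thus did not overlap between genotypes. How often means over other genes separate in that way was not determined, and the share of single probes without overlap is no measure of it. The part of these cells in the Irs1 difference was not tested.

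**Figure D3:**
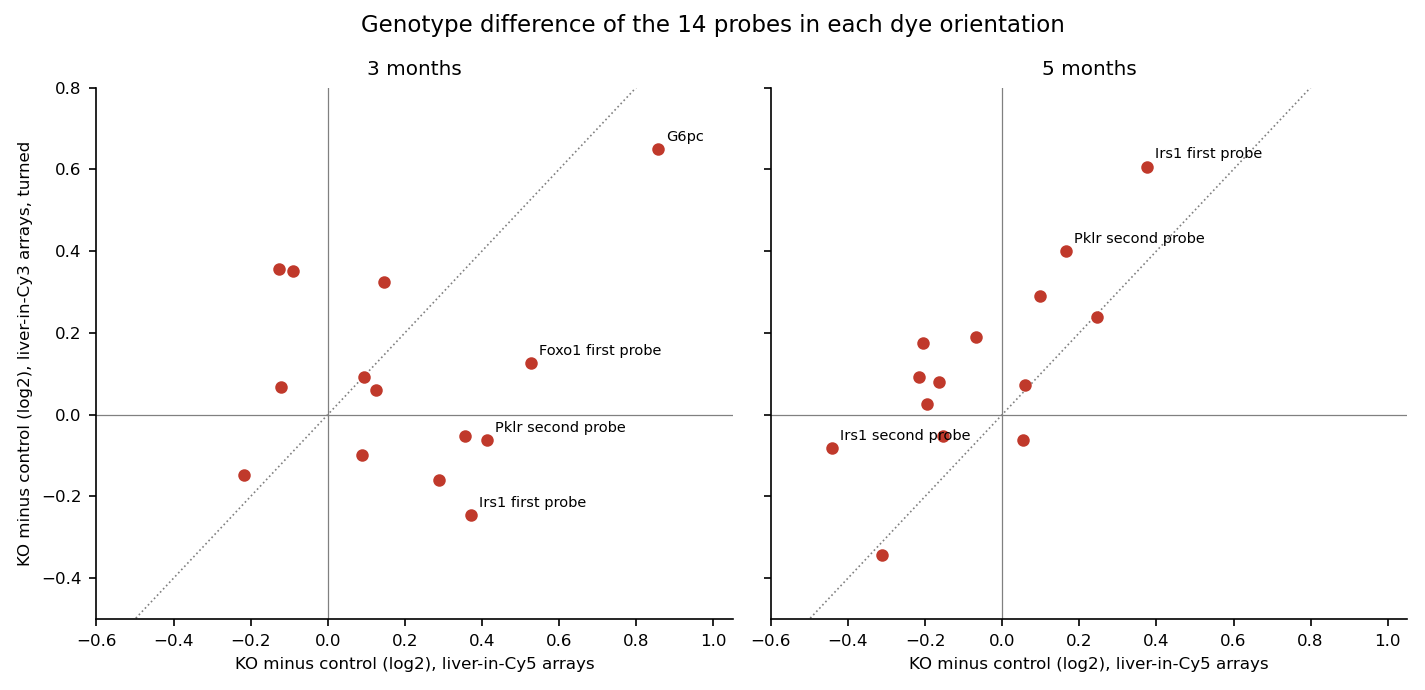
Genotype difference (knockouts minus controls, log2) of the 14 probes on liver-in-Cy5 arrays (x axis) and on liver-in-Cy3 arrays after turning (y axis), at 3 and 5 months; the dotted line marks equal values. G6pc at 3 months (0.86 and 0.65) and the first Irs1 probe at 5 months (0.38 and 0.61) lie far out on the same side in both orientations. At 3 months the sign differs between orientations for the first Pck1 probe and all Irs1, Pklr and Slc2a2 probes. At 5 months it differs for the first Pck1 probe, the first Pklr probe, all Slc2a2 probes and Gys2.

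Foxo1 encodes the transcription factor that insulin inactivates through AKT. At 3 months its first probe gave -0.57, -0.24, -0.03, -0.69 and -0.21 in knockouts, against -0.88, -0.53, -0.63, -0.57 and -0.77 in controls. At 5 months it gave 0.07, -0.38, 0.19, 0.02 and -0.30 in knockouts, against 0.49, 0.32, 0.30, 0.24 and -0.09 in controls. The difference had opposite signs, 0.33 (0.01 to 0.64) at 3 months and -0.33 (-0.65 to -0.02) at 5 months, and the groups overlapped at both ages. Limma's adjusted p was 0.606 and 0.451, and 0.505 for the change between the ages (-0.66, unadjusted p = 0.00596).

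The second Foxo1 probe showed no such turn. At 3 months its difference was 0.23 (-0.10 to 0.57), and at 5 months 0.20 (-0.13 to 0.54), with all 5 knockouts above the control mean at 3 months and 3 of 5 at 5 months. The Foxo1 probes correlated at r = -0.23 over 20 mice with group means removed. FOXO1 activity depends on where the protein is and on its phosphorylation, which RNA ratios do not measure.

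Slc2a2 encodes GLUT2, the hepatocyte glucose transporter. The difference of its 3 probes lay between -0.005 and 0.13 at 3 months and between -0.055 and 0.048 at 5 months, each with an interval that includes 0. The second and the third probe followed each other closely (r = 0.89) and lay below the reference in most mice, at group means from -0.52 to -0.26. The first probe lay nearer to it, from -0.15 to 0.01.

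Pklr encodes the pyruvate kinase of liver and red cells, which insulin activates and carbohydrate feeding induces. The first probe differed by -0.03 (-0.39 to 0.34) at 3 months and 0.04 (-0.33 to 0.40) at 5 months. It lay below the reference in 5 of 5 knockouts, as 18.8% of all probes did, and in 4 of 5 controls at 3 months. The second differed by 0.18 (-0.18 to 0.53) and 0.19 (-0.16 to 0.55). The probes of Pklr correlated at r = -0.22.

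Gys2 encodes liver glycogen synthase. At 3 months it lay below the reference in all 10 mice, with a mean of -0.40 ± 0.15 in knockouts and -0.50 ± 0.31 in controls (SD, n = 5 each). Of all probes, 18.8% lay below it in all 5 knockouts of that age and 18.9% in all 5 controls. At 5 months the means were 0.17 ± 0.51 in knockouts and 0.22 ± 0.28 in controls, and 2 of the knockouts, at 0.89 and 0.52, stood above the other 3. The genotype difference was 0.09 (-0.35 to 0.53) at 3 months, and -0.04 (-0.48 to 0.39) was found at 5 months.

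**Figure D4:**
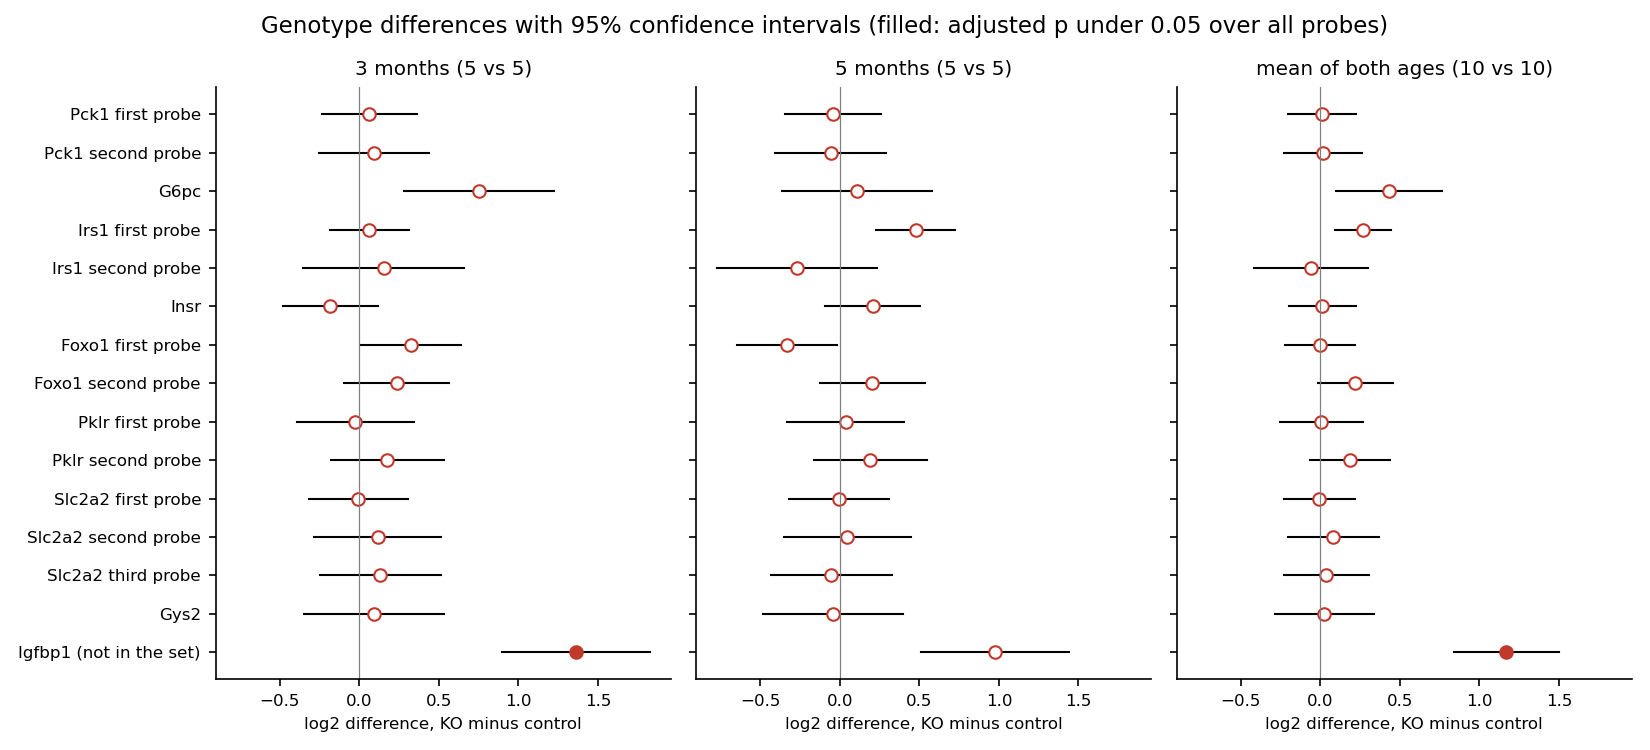
Log2 difference between knockouts and controls, with limma's 95% confidence interval, for the 14 probes and for Igfbp1, at 3 months, at 5 months and as the mean of both ages; filled circles have an adjusted p under 0.05. Of the 14 probes none is filled, G6pc at 3 months (0.75) and the first Irs1 probe at 5 months (0.48) lie farthest from 0, and Igfbp1 is filled at 3 months and over both ages.

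Igfbp1 is no member of the set but a known target of the same pathway. It encodes a plasma protein that binds insulin-like growth factors, and insulin shuts off its transcription in hepatocytes. At 3 months it gave -0.16, -0.28, -0.08, -0.44 and -0.25 in knockouts, against -1.71, -1.60, -2.07, -1.67 and -0.98 in controls. At 5 months its values ran from -0.94 to -0.01 in knockouts and from -1.97 to -0.90 in controls, an overlap of 1 mouse at each edge. Igfbp1 rose in knockouts over both ages, by 1.17 ± 0.16 (SE, adjusted p = 0.00279). With the liver in Cy5 alone, where no array is turned, that rise was 1.08 (limma, adjusted p = 0.0320). With the liver in Cy3 alone, after turning, it was 1.19 (adjusted p = 0.0445). It was 0.56 and did not pass (adjusted p = 0.274) with the 3-month arrays not turned. With no array turned it was -0.066 (adjusted p = 0.986), where orientations that agree after turning cancel. The rise at 3 months (1.36, adjusted p = 0.0482) was lost in 25 of 38 alternatives to the processing, was 0.15 with no array turned, and at 5 months (0.98, adjusted p = 0.103) it did not pass. Igfbp1 and G6pc thus lay below the reference in all 3-month controls, as 18.9% of all probes did, and nearer to it in the knockouts.

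Other genes of insulin action were counted in 9 lists, a gene passing where any of its probes passed over all probes. Non-members named below that did not pass were picked for a small unadjusted p over both ages. Across the lists, Igfbp1 was the 1 gene that passed between genotypes, among 15 measured FOXO target genes (median difference 0.08 at 3 months and 0.12 at 5 months, against -0.03 and 0.02 for all genes). Among all 17501 named genes, 0.0343% had a probe called at 3 months and 0.200% at 5 months.

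In the glucose output list, 0 of 10 genes passed and the medians were 0.03 and 0.06. Got1, the cytosolic aspartate aminotransferase of the malate shuttle, differed by 0.31 at 3 months and 0.71 at 5 months (adjusted p = 0.883 and 0.464). Both probes of Mdh1, its partner in that shuttle, gave 0.57 and 0.41 at 5 months (adjusted p = 0.322 and 0.386). In the glucose entry and glycolysis list 0 of 11 passed, with medians of 0.07 and 0.11. Pdk4, the kinase that shuts pyruvate dehydrogenase in fasting, differed by 0.22 and 0.12. In the glycogen list 0 of 13 passed, with medians of 0.09 and 0.09. Pygl, the liver glycogen phosphorylase, differed by 0.09 and 0.33, and Ugp2, which makes UDP-glucose, by 0.18 and 0.38.

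In the signalling cascade 0 of 17 passed (medians 0.06 and 0.03). Gab1, the docking protein that serves both Met and the insulin receptor, differed by 0.32 at 3 months and 0.21 at 5 months (adjusted p = 0.736 and 0.793). Among the brakes on signalling 0 of 10 passed (0.04 and 0.09). Its 2 Ptpn1 probes, for the phosphatase of the insulin receptor, disagreed at 5 months (-0.25 and 0.47). The 2 Grb14 probes, for an inhibitor of the receptor kinase, gave 0.26 and 0.18 at 3 months, with adjusted p at 0.614 and 0.780.

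Transcription factors of the pathway had 0 of 17 passing and medians of -0.06 at both ages. Cebpa, a driver of gluconeogenic genes, gave -0.37 and -0.20 with its 2 probes at 3 months and -0.23 and -0.31 at 5 months (adjusted p from 0.560 to 0.837). Of 9 lipogenic genes that insulin induces 0 passed (-0.05 and -0.01). Thrsp, which responds to carbohydrate, gave -0.68 and -0.06, and Fasn, fatty acid synthase, 0.02 and 0.27. On the glucagon and glucocorticoid side 0 of 8 passed (-0.05 and 0.06). Tat, tyrosine aminotransferase, which both hormones induce, gave 0.37 and 0.68, with adjusted p at 0.793 and 0.369. The 2 Prkar1a probes gave -0.12 and -0.41 at 3 months and 0.05 and -0.17 at 5 months (limma, adjusted p from 0.458 to 0.966).

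**Figure D5:**
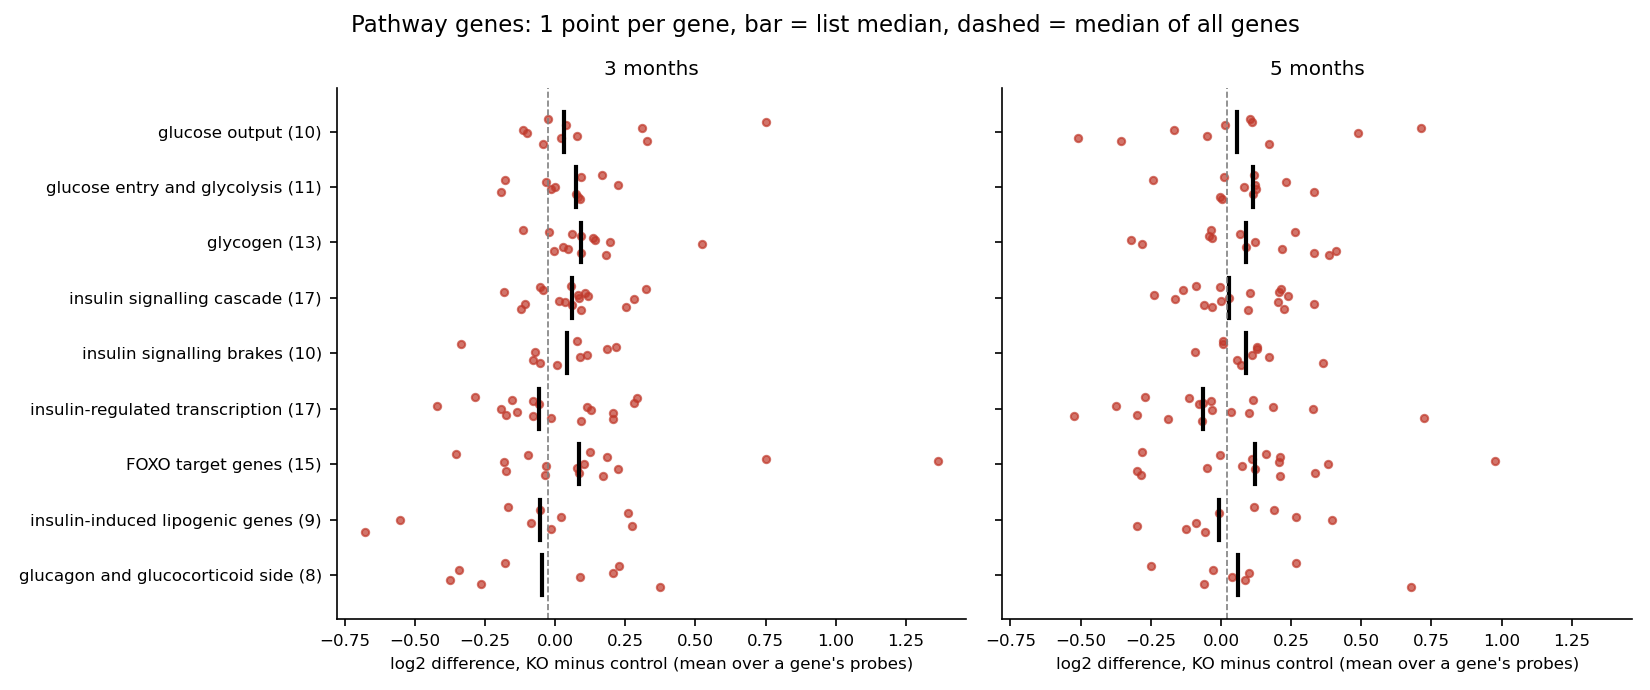
Log2 difference between knockouts and controls for each measured gene of 9 lists of insulin action, averaged over its probes, at 3 and 5 months; the number of genes is in brackets, bars mark list medians and the dashed line the median of all genes. List medians lie between -0.06 and 0.12, and the point farthest right in both panels is Igfbp1 (1.36 and 0.98).

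Between ages, within a genotype, 4 of the probes changed. The ages were hybridised in separate runs of array numbers, so age and array run cannot be told apart. The median of all probes was 0.14 higher at 5 months in knockouts and 0.13 higher in controls, a shift that centring each array removes, and the values below stand against it. In knockouts 1 of 14 probes passed, against 4.73% of all probes. Insr was 0.72, 0.24, 0.37, 0.51 and 0.40 at 5 months, against -0.14, -0.11, 0.23, 0.16 and -0.46 at 3 months, and rose by 0.51 (0.21 to 0.81, adjusted p = 0.0467). Every 5-month knockout lay above every 3-month one by a narrow margin, as in 6.89% of all probes without overlap in either direction. With each array centred the rise was 0.34 and did not pass (adjusted p = 0.145), with no array turned it was 0.24 and did not pass (adjusted p = 0.194), and leaving out single mice ended the call in 13 of 20 cases.

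In controls 3 of 14 probes passed, against 14.7% of all probes. The first Foxo1 probe rose by 0.92 (0.61 to 1.24, adjusted p = 0.00137), with means of 0.25 ± 0.21 at 5 months and -0.68 ± 0.14 at 3 months. The first Irs1 probe fell by 0.75 (adjusted p = 0.00114), with means of -0.45 ± 0.16 at 5 months and 0.29 ± 0.16 at 3 months. Gys2 rose by 0.71 (0.27 to 1.15, adjusted p = 0.0299), but its value with arrays centred, 0.57, and that with no array turned, 0.064, did not pass. The second Foxo1 probe gave -0.02 and the second Irs1 probe 0.65 (adjusted p = 0.936 and 0.0732), so again probes of a gene disagreed. With the liver in Cy3 alone the Foxo1 value was 0.24 and did not pass. With no array turned the Foxo1 value was 0.68 (adjusted p = 0.0232) and the Irs1 value 0.28. With the 3-month arrays not turned the Irs1 value was -0.25 and did not pass (adjusted p = 0.0968). In knockouts the same probes differed by 0.27 (Foxo1), -0.33 (Irs1) and 0.58 (Gys2), none of which passed. With each array centred, the first Irs1 probe passed in knockouts too (-0.50, adjusted p = 0.0282).

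For the 3 member probes with the smallest p over both ages, the genes whose probes varied most like it over the 20 mice, with age means removed, were listed. G6pc lay closest to Zcchc18 (r = 0.83), Madd (0.73) and Mbd1 (0.70). The first Irs1 probe lay closest to Wwox (0.86), Slc2a8 (0.84) and Olfr318 (0.83). Wwox, a tumour suppressor gene, was itself higher in 5-month knockouts (0.88, limma, adjusted p = 0.0317). Because only age means were removed, the genotype difference stays in r, and the ranking favours probes that share it. For Wwox r was 0.56 over the 3-month mice and 0.94 over the 5-month mice, so its difference is no separate observation. The second Foxo1 probe lay closest to Lpin2 (0.84), Errfi1 (0.84) and Ddx3x (0.84). These mice share arrays, runs and the reference. The search ran over probes with 1 gene symbol, of which the array has 26926, and the best of so many is always high.

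Among the members, the pairs of different genes had a median r of 0.08 with group means removed (84 pairs, -0.60 to 0.85), and the 7 pairs of probes of 1 gene a median of 0.36 (-0.23 to 0.89). The highest pair of different genes was the second Foxo1 probe with Gys2 (0.85). Gys2 also followed the first Slc2a2 probe (0.76) and the second Pck1 probe (0.68). These are descriptions over mice that share arrays and the reference.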

How the data were processed

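The authors deposited log2 ratios between the dyes for 38 arrays, each scaled to its median signal per the series' design text. The deposited ratios were nevertheless not centred on 0. Before turning, array medians ran from -0.65 to -0.34 (3-month Cy5), -0.385 to -0.17 (3-month Cy3), -0.10 to 0.09 (5-month Cy5) and -0.27 to -0.035 (5-month Cy3). How the arrays were centred is not known, and every position above, near or below the reference depends on it. Base 2 was read from the spacing of repeated values. Spot signals are not used here, so dim probes stay in, and precision depends on the number of arrays. Arrays with the liver in Cy3 had their sign turned, each probe's dye effect (estimated in the 18 mice that have both orientations) was taken out, and arrays were averaged per mouse. For 5-month knockouts 2 and 3, with 1 array each, this effect sets their values in part. Both orientations of 3-month mice correlated at 0.34 to 0.51 before turning, where ratios of the dyes would mirror, so the turning is not settled there. Probes were compared with limma 3.58.1 in R 4.3.3 over all 20 mice, with intervals at 95%. The code was tested on simulated data.

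Every probe of a member is named, and every list gene that passed. Lists of insulin action with none passing are shown by up to 2 non-members with the smallest unadjusted p over both ages. Genes picked in that way do not stand for their list. Gapdh, Rictor and Foxo3 also met that rule and are not described. Members, lists and tests were chosen with earlier results of these data known. Symbols come from the platform annotation. Replicate numbers do not pair mice (r of same-numbered mice from -0.18 to 0.17). Alternatives covered scaling, dye handling, orientation, array runs and single mice.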

Additional observations from a re-analysis of the deposited data

Results flagged for a closer look

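Dixon's test for a sample far from the others was applied to 56 groups of 5 mice, and 2 stood out, where chance gives about 1 in 20. The first Pklr probe was 0.069 in 3-month control 4, against -0.45 to -0.37 in the other 4 controls. The first Slc2a2 probe was -0.296 in 3-month knockout 3, against -0.13 to -0.09 in the other 4 knockouts.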

How the results depend on the processing

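In all alternatives adjusted over all probes, the count of members called between genotypes stayed at 0, also for the change of the difference between ages. At the methods' t-test with its unadjusted threshold it was 1 at 3 months (G6pc) and 1 at 5 months (the first Irs1 probe). G6pc at 3 months kept its sign in 38 of 38 alternatives, with adjusted p from 0.235 to 1.00, and the first Irs1 probe at 5 months in 36 of 37. Many of these alternatives, such as another test or leaving out a mouse of the other age, cannot move the difference at an age. Its sign was fixed there, so these counts overstate how far it was tried. Over all probes the number called ran from 0 to 63 at 3 months (13 as reported) and from 0 to 242 at 5 months (53 as reported). For knockouts, 5 months less 3 months, the count of 1 became 2 with quantile normalisation or the liver in Cy5 alone, 8 with the 3-month arrays not turned, and 0 with no dye effect subtracted, the liver in Cy3 alone, without the mice with 1 array, without the Cy5 array of 5-month control 4 or with the replicate block (Insr adjusted p = 0.0552), and it ran from 0 to 1 leaving out single mice. With each array centred it stayed at 1, with another member: Insr was lost (adjusted p = 0.145) and the first Irs1 probe passed (-0.50, adjusted p = 0.0282). With no array turned it also stayed at 1, through the first Pck1 probe (-0.33, adjusted p = 0.0314). For controls the count of 3 became 7 with 3-month arrays not turned, 2 with each array centred, Gys2 being lost, and 1 with the liver in Cy3 alone, and ran from 2 to 3 leaving out single mice. The replicate block changed no other count of members, and ended the Igfbp1 call at 3 months (adjusted p = 0.0694) and the Dcn call (0.137). With no array turned, the first Irs1 probe in controls between ages was 0.28, Igfbp1 over both ages -0.066, and the Dcn probe at 5 months -0.055. With the 3-month arrays not turned, differences between ages were -0.51 for the first Pklr probe in knockouts, and in controls -1.04 for G6pc, -0.64 for the first Pklr probe, -0.72 for the second and -0.55 for the third Slc2a2 probe. The cause was not tested. The Dcn call was lost with its sign kept in 29 of 37 alternatives.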
